A study of Gallus gallus with 6 samples.

Results

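The NF-kB transcription factors, their inhibitors and the adaptors that control them were followed in DT40, a B cell line from the chicken bursa of Fabricius that takes up targeting constructs by homologous recombination at high frequency. The members were 10 genes: NFKB1, NFKB2, REL and RELA for the factors, NFKBIA and NFKBIZ for the inhibitors, and TRAF2, TRAF3, TRAF6 and BIRC2 for the adaptors and ubiquitin ligases. Every probe set annotated to 1 of these symbols alone was taken, which gave 20 of the 38439 probe sets tested. The Pax5-deficient group (genotype Pax5-/-) held 3 samples of a line in which PAX5 was disrupted with the Pax5-neo and Pax5-bsr constructs, with selection of stably transfected clones. The wild-type group held 3 samples of the parental line. All samples were of the same female line and grown in the same medium. All 6 carry the tag of a gene knockout and an extraction text that also names Bcl6-/- cells, so groups were taken from title and genotype. The labels do not say how many clones the Pax5-deficient samples represent, so effects of clone selection and of the missing gene cannot be told apart. Each sample was read on 1 Affymetrix chicken array. The replicates are called biological in the study's design, but no label describes separate cultures, so the p-values reflect how these samples vary, which may be technical in part.

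NF-kB factors are dimers of Rel-family proteins. In resting cells IkB proteins hold them in the cytoplasm, and signals from the B cell receptor, CD40 or Toll-like receptors lead to IkB kinase activity, loss of IkB and entry of the dimers into the nucleus. A second, slower route starts at receptors such as those for BAFF and CD40 and depends on the kinase NIK, the product of MAP3K14. In mammals a complex of TRAF3, TRAF2 and the BIRC2 or BIRC3 ubiquitin ligases keeps NIK low. B cells use both routes for survival and activation.

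All values are log2 expression levels as the authors deposited them, and differences are Pax5-deficient minus wild type on that scale. Between 54.3% and 57.5% of probe sets lay above background. Background was the level that 95% of 541 probe sets on the same array did not exceed, on average 3.76. These were taken to be virus probe sets from their names alone, and whether some carry signal in this line was not tested. Of the 4 probe sets of PAX5, 1 fell in Pax5-deficient cells, to background in all 3 samples (3.86, 3.55 and 3.34, against 4.55, 4.41 and 4.30 in wild-type cells; limma, adjusted p = 0.00483). The brightest of the others differed by 0.24 ± 0.09 (SE) and did not pass, and the other two were at background. No label places these probe sets against the disrupted part of the gene, so they check the genotype only in part. Of 11 measured B cell markers, each by its brightest probe set, 10 were above background in every sample. PAX5 itself was among these 10, on its brightest probe set, which did not fall in Pax5-deficient cells. EBF1 was at background in the 3 Pax5-deficient samples. Of the 11, 7 fell and 1 rose, while over all genes 9.74% were called lower and 6.01% higher. Averaged over the 11 markers, the level was 8.33 to 8.37 in Pax5-deficient samples, against 9.89 to 9.98 in wild-type samples. The largest falls among them were those of VPREB3, by 6.60 ± 0.20 (SE), and EBF1, at least 29.4-fold lower. The averages lean on these genes, while the median difference of the 11 was -0.87. BLB1 rose by 0.54 ± 0.10 (SE), and IGLL1, JCHAIN and PAX5 did not pass. Of 8 T lineage markers, CD4 and CD28 were at background throughout, CD247 and CD8A rose by 2.27 ± 0.27 and 0.52 ± 0.12, and CD3E fell by 0.51 ± 0.13 (SE, n = 3 per group). CD3D, the brightest, differed by -0.29 ± 0.09 (SE) and did not pass, and neither did LCK and ZAP70, both near background. CD247 had the largest difference and weighs most on the change of the average. The average over these 8 was 5.16 to 5.30 in Pax5-deficient samples, against 4.90 to 5.04 in wild-type samples. None of 8 myeloid and 3 erythroid or thrombocyte markers passed, and 1 of 6 stromal markers, COL1A2, rose. The averages over these 3 lists were 4.27 to 4.38, 4.55 to 4.80 and 4.38 to 4.49 in Pax5-deficient samples, against 4.14 to 4.24, 4.58 to 4.65 and 4.21 to 4.35 in wild-type samples. The part of these marker changes in the results below was not tested.

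Of the 20 member probe sets, 7 fell in Pax5-deficient cells and 13 did not pass, with none higher. Over all probe sets, 6.7% were called lower and 3.93% higher at the same threshold, an adjusted p of 0.05 in limma (10.6% in either direction). The bases differ, since 13865 of all 38439 probe sets were at background in all 6 samples, against 4 of the 20. Without probe sets under the median level, 2509 of 19220 were lower and 1526 higher, against 7 of 14 member probe sets lower and 0 higher. The 7 belong to 5 of the 10 genes, NFKB1, NFKBIA, NFKBIZ, TRAF3 and BIRC2. Over all 13009 genes, each by its brightest probe set, 9.74% were called lower and 6.01% higher (15.8% in either direction). That is 1267 genes lower and 782 higher, and quantile normalization of the deposited values moved the split to 1138 and 1059. At background in all 6 samples were 2582 of the 13009 genes, against 1 of the 10 member genes. Without wild-type replicate 2, 1286 genes were called in place of 2049, and 2490 probe sets in place of 4085. The 782 genes called higher numbered 497, 446 and 513 without wild-type replicate 1, 2 or 3. The 2 groups did not overlap on 9 member probe sets, with 7 lower and 2 higher in Pax5-deficient samples, against 27.4% of all probe sets (12.9% lower and 14.4% higher). By gene the count was 7 of 10, with 5 lower and 2 higher, against 35.0% of all genes (17.5% lower and 17.5% higher). Among the 2 higher, in both counts, the RELA probe set was at background in all 6 samples. These counts describe the members and do not set them apart. In bulk RNA, fewer cells with a transcript and less of it per cell cannot be told apart.

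**Figure D1:**
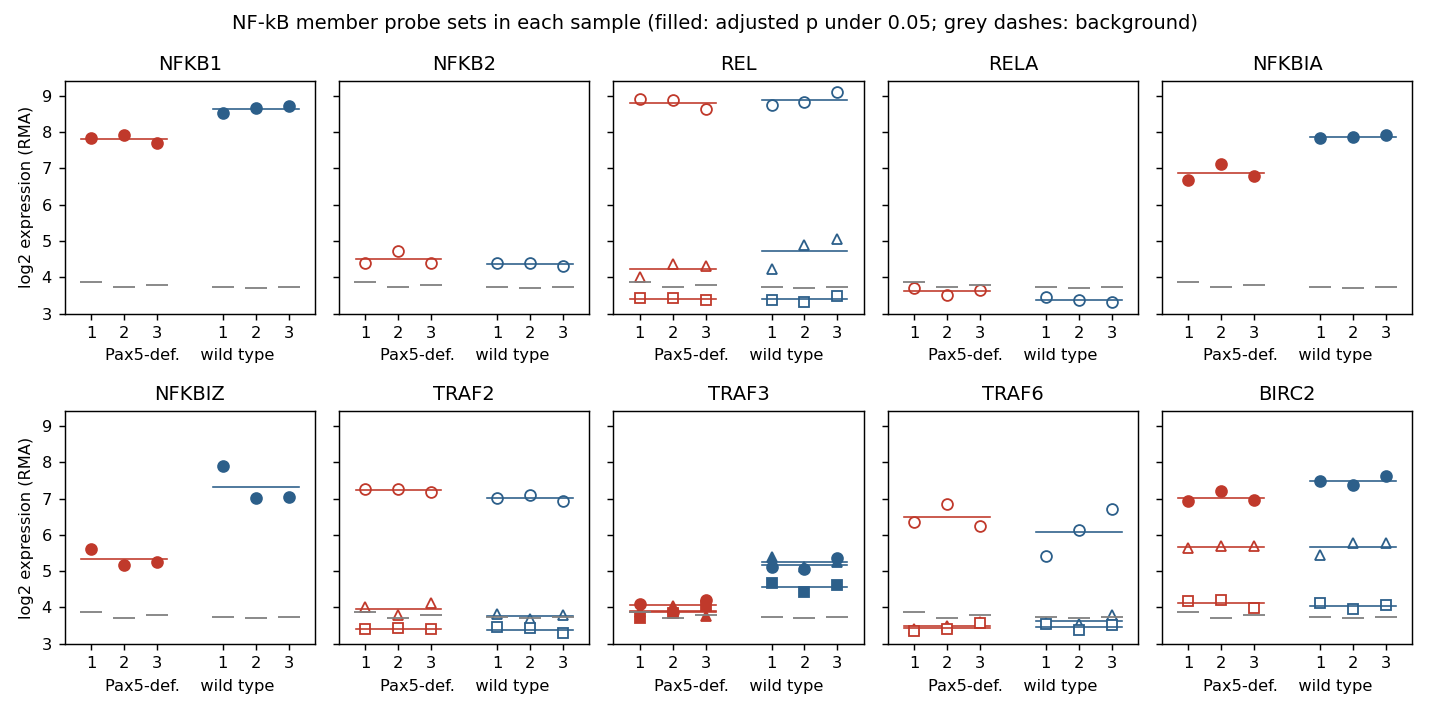
The log2 expression level (y axis) of each member probe set in each sample (x axis, replicates 1 to 3 of Pax5-deficient cells in red, then of wild-type cells in blue). Marker shapes separate the probe sets of a gene, lines are group means, filled markers passed an adjusted p of 0.05, and grey dashes are the array's background. The NFKB1, NFKBIA, NFKBIZ and TRAF3 groups lie apart, while both REL groups share a level near 9 on the brightest probe set.

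Among the Rel-family factors, NFKB1 fell and the brightest probe set of REL did not pass. NFKB1 encodes a precursor that is processed to a DNA-binding subunit with no activation domain of its own, and the unprocessed form can act as an IkB. Its single probe set (Entrez gene 396033) read 7.83, 7.92 and 7.71 in the Pax5-deficient samples, against 8.53, 8.67 and 8.73 in the wild-type samples. All 3 Pax5-deficient samples lay below all wild-type samples, with a gap of 0.61. The means were 7.82 ± 0.10 in Pax5-deficient and 8.64 ± 0.10 in wild-type samples (SD, n = 3 each). The difference was -0.82 ± 0.10 (SE), a 1.77-fold fall (limma, Benjamini-Hochberg adjusted p = 0.000787).

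REL (Entrez gene 396500) encodes c-Rel, a subunit with an activation domain that is prominent in lymphocytes, and is the cellular counterpart of the oncogene of an avian retrovirus. Its brightest probe set read 8.90, 8.87 and 8.64 in Pax5-deficient samples, against 8.73, 8.82 and 9.11 in wild-type samples. The groups overlapped, and the difference was -0.09 with a 95% interval of -0.37 to 0.19 (limma adjusted p = 0.762). A dimmer REL probe set read 4.02, 4.37 and 4.31 in Pax5-deficient samples, against 4.22, 4.90 and 5.05 in wild-type samples. It differed by -0.49 ± 0.20 (SE) and did not pass (adjusted p = 0.195). Without wild-type replicate 1, its lowest wild-type sample, the difference was -0.74 and passed (adjusted p = 0.0149). It did not pass in the other 5 fits that left out 1 sample (limma adjusted p up to 0.477). The remaining REL probe set, named after a separate sequence record, was at background in all 6 samples. Whether it reads the chicken gene was not tested. Between NFKB1 and the brightest REL probe set, a pair chosen after the values were seen, the changes differed by -0.74 ± 0.08 (SE), with no overlap between the groups. For this and the later differences between changes, the SE came from the spread of these samples alone and not from limma. It is therefore not on the same footing as the SEs of single probe sets. An exact two-sided permutation test gave p = 0.1, the smallest that 3 against 3 samples allow.

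NFKB2 (Entrez gene 386574), the precursor of the subunit that the slower route releases, was dim, at 4.39, 4.73 and 4.40 in Pax5-deficient samples, against 4.40, 4.39 and 4.32 in wild-type samples. Its difference was 0.14 with a 95% interval of -0.11 to 0.38 (limma adjusted p = 0.549). RELA (Entrez gene 396027), the main activating subunit in many cell types, was at background in all 6 samples on its only probe set, so no fold is given. Its values were 3.71, 3.52 and 3.66 in Pax5-deficient samples, against 3.47, 3.38 and 3.31 in wild-type samples (adjusted p = 0.15). Of the Rel-family genes followed here, NFKB1 and REL were those with a probe set well above background. RELB, a further Rel-family gene, had no probe set matched by symbol. Whether RELA transcript was scarce or its only probe set reads poorly was not tested.

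Both inhibitors fell, and NFKBIZ had the largest difference of the 20 probe sets. NFKBIA (Entrez gene 396093) encodes IkB alpha, the inhibitor that is degraded and then made anew as a target of NF-kB itself. Its probe set read 6.69, 7.12 and 6.79 in Pax5-deficient samples, against 7.85, 7.85 and 7.91 in wild-type samples. The Pax5-deficient samples all lay below the closely spaced wild-type ones, with a gap of 0.73. The difference was -1.01 ± 0.12 (SE, n = 3 per group), or 2.01-fold (limma adjusted p = 0.000791).

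NFKBIZ (Entrez gene 418404) encodes IkB zeta, an atypical nuclear IkB that in mammals is induced by Toll-like receptor signals and helps to activate a subset of NF-kB targets. Its probe set read 5.60, 5.16 and 5.26 in Pax5-deficient samples, against 7.89, 7.01 and 7.04 in wild-type samples. The groups were 1.40 apart, and wild-type replicate 1 stood above the other wild-type samples. The means were 5.34 ± 0.23 in Pax5-deficient and 7.31 ± 0.50 in wild-type samples (SD, n = 3 each). The fitted difference of -1.97 had a 95% interval of -2.49 to -1.45, or 3.92-fold (limma adjusted p = 0.000766), and was -1.68 without wild-type replicate 1. By size it ranked at 185 among the falls of all 38439 probe sets, while NFKBIA ranked at 711 and NFKB1 at 1065. The change of NFKBIZ minus that of NFKBIA was -0.97 ± 0.39 (SE), with no overlap between the groups and again the smallest p of the exact permutation test, 0.1.

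TRAF3 fell on all 3 of its probe sets, to near background in Pax5-deficient cells, against a low level above it in wild-type cells. TRAF3 (Entrez gene 423471) is an adaptor that restrains the slower NF-kB route in B cells of mice and humans. The brightest read 4.11, 3.87 and 4.21 in Pax5-deficient samples, against 5.10, 5.07 and 5.35 in wild-type samples. The next read 3.88, 4.04 and 3.75 in Pax5-deficient samples, against 5.39, 5.12 and 5.24 in wild-type samples. The dimmest read 3.70, 3.86 and 4.05 in Pax5-deficient samples, against 4.66, 4.44 and 4.63 in wild-type samples. On none of the 3 did the groups overlap, with gaps of 0.86, 1.07 and 0.38.

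The differences of the 3 TRAF3 probe sets were -1.11 ± 0.12, -1.36 ± 0.11 and -0.71 ± 0.11 (SE, n = 3 per group; limma adjusted p = 0.000504, 0.000105 and 0.0044). All 3 Pax5-deficient samples were above background on the brightest, and 2 of the 3 on each of the others. As folds these were 2.16, 2.56 and 1.63, with the Pax5-deficient values close to background. The 3 probe sets report on 1 gene and are not independent evidence.

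TRAF2 (Entrez gene 417287), the partner of TRAF3 that binds the BIRC2 and BIRC3 ligases in mammals, did not pass on any of its 3 probe sets. The brightest read 7.26, 7.25 and 7.19 in Pax5-deficient samples, against 7.03, 7.10 and 6.93 in wild-type samples. The Pax5-deficient samples were all higher, by a gap of 0.09, and the difference of 0.21 (95% interval 0.02 to 0.41) missed the threshold (limma adjusted p = 0.181). Groups that do not overlap were common here, at 27.4% of all probe sets. A second TRAF2 probe set differed by 0.20 ± 0.10 (SE) near background, and the remaining one was at background in every sample. Between TRAF3 and TRAF2 the changes on the brightest probe sets differed by -1.33 ± 0.18 (SE), with no overlap (exact permutation p = 0.1, the smallest possible).

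TRAF6 (Entrez gene 423163), the adaptor and ubiquitin ligase downstream of Toll-like and interleukin-1 receptors, had the widest spread of the members within the wild-type group, with an SD of 0.64. Its brightest probe set read 6.35, 6.84 and 6.26 in Pax5-deficient samples, against 5.43, 6.12 and 6.70 in wild-type samples. The groups overlapped, and the difference of 0.40 had a 95% interval of -0.25 to 1.05 (limma adjusted p = 0.491), so changes within that interval could not be told from 0. Its other 2 probe sets were at or near background, with differences of -0.13 ± 0.10 and -0.03 ± 0.10 (SE).

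BIRC2 (Entrez gene 374012), a ubiquitin ligase of the inhibitor of apoptosis family that acts with TRAF2, gave a small fall on 1 of 3 probe sets. The brightest read 6.92, 7.21 and 6.95 in Pax5-deficient samples, against 7.47, 7.37 and 7.62 in wild-type samples. The groups were 0.16 apart and the difference was -0.46 ± 0.11 (SE, n = 3 per group), or 1.37-fold (limma adjusted p = 0.0304). This call was lost without any 1 sample except Pax5-deficient replicate 2 (adjusted p up to 0.117), and after quantile normalization (0.0602). The other 2 probe sets read 5.63 to 5.70 and 3.99 to 4.22 in Pax5-deficient samples, against 5.45 to 5.79 and 3.96 to 4.12 in wild-type samples. Their differences had 95% intervals of -0.25 to 0.25 and -0.14 to 0.30, so the call rests on 1 probe set. The interval of the brightest, -0.71 to -0.21, overlapped the first of these but not the second. The change on the brightest minus that on the next was -0.46 ± 0.15 (SE; exact permutation p = 0.1, the smallest possible). The 4 exact permutation tests of a difference between changes each kept p = 0.1 after Benjamini-Hochberg adjustment, and the pairs were chosen after the values were seen.

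**Figure D2:**
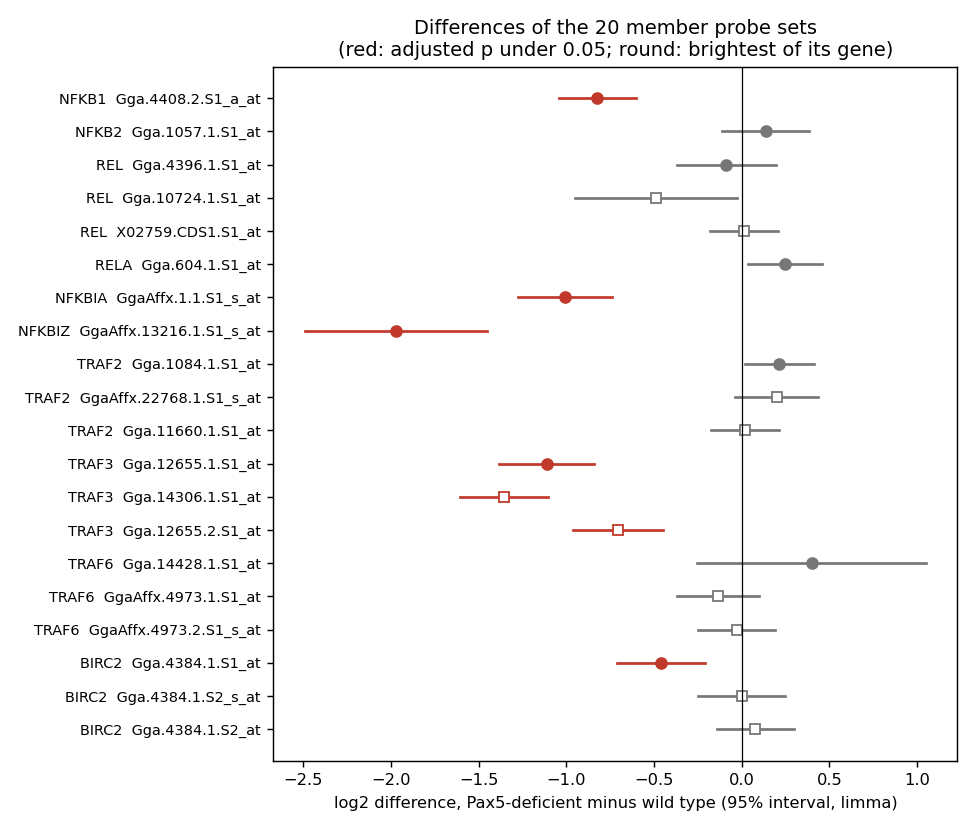
The log2 difference (x axis, Pax5-deficient minus wild type, with limma's 95% interval) of each of the 20 member probe sets (y axis). Red ones passed an adjusted p of 0.05 and round markers are the brightest of their gene. The 7 that passed all lie left of 0, from -1.97 for NFKBIZ to -0.46 for BIRC2.

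The falls of NFKB1, NFKBIA, NFKBIZ and of the 3 TRAF3 probe sets passed in each of the 12 other settings tried, which included leaving out each sample in turn. Over those settings NFKB1 ranged from -0.88 to -0.77, NFKBIA from -1.13 to -0.92 and NFKBIZ from -2.12 to -1.68. The 3 TRAF3 probe sets ranged from -1.19 to -1.02, from -1.43 to -1.29 and from -0.80 to -0.62. The highest adjusted p among these 6 probe sets was 0.0238 (limma), for the dimmest of TRAF3.

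**Figure D3:**
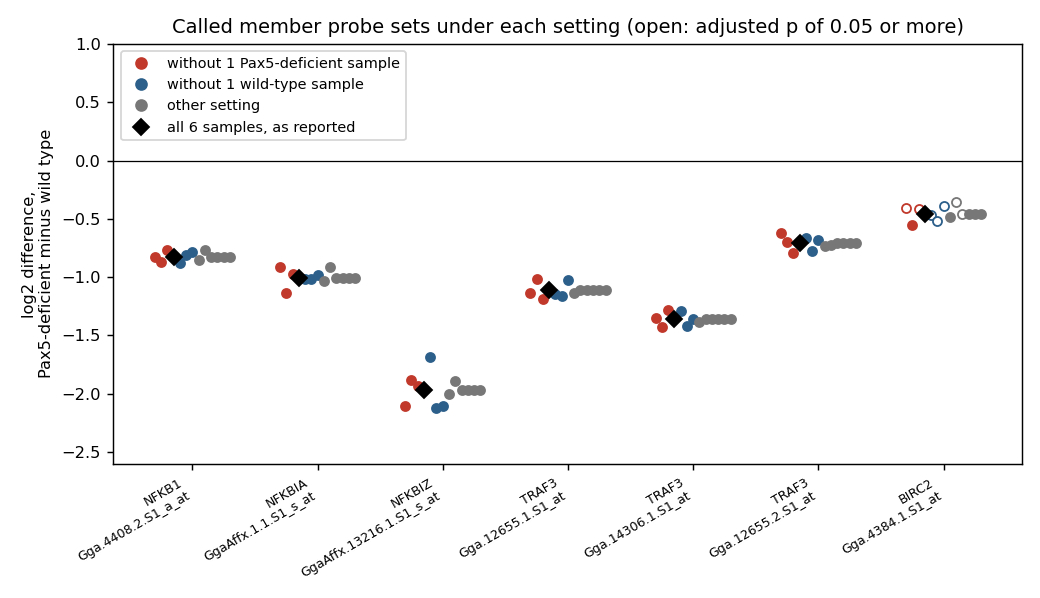
The log2 difference (y axis, Pax5-deficient minus wild type) of the 7 called member probe sets (x axis) with all 6 samples (black diamonds) and under each of the 12 other settings. Open circles have an adjusted p of 0.05 or more, and these occur for BIRC2 alone, whose differences lie between -0.55 and -0.35.

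The other genes of the pathway moved in both directions. Of 61 genes listed, 42 were measured by symbol, of which 8 fell and 3 rose, while 31 did not pass. As shares, 19% were lower and 7.14% higher (against the 9.74% and 6.01% of all genes). Their median difference was 0.07, against 0.03 over all probe sets. At background in all 6 samples were 3 of the 42, against 2582 of all 13009 genes. With quantile normalization the counts were 7 lower and 5 higher.

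RIPK1, the kinase that TNF receptors and Toll-like receptors recruit, read 6.90, 6.83 and 6.78 in Pax5-deficient samples, against 8.0, 8.08 and 8.0 in wild-type samples. The groups did not overlap, and the difference was -1.19 ± 0.08 (SE, n = 3 per group; limma adjusted p = 4.6e-05). MYD88, the adaptor of most Toll-like receptors, fell by 0.96 ± 0.09 on its brightest probe set (adjusted p = 0.00019), while its other probe set had a difference of 0.34 ± 0.13 in the other direction, which did not pass. TRAF5, TANK and MAP3K14 fell by 0.83 ± 0.13, 0.79 ± 0.11 and 0.82 ± 0.13 (adjusted p = 0.00371, 0.00212 and 0.00443). TRAF5 is a TRAF adaptor of TNF-family receptors, TANK binds TRAF proteins and the kinase TBK1, and MAP3K14 encodes NIK, the kinase that TRAF3 restrains. Second probe sets of TRAF5 and MAP3K14 had differences of -0.34 ± 0.11 and -0.35 ± 0.19 and did not pass.

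PRKCB, the protein kinase C that links the B cell receptor to IkB kinase, read 6.39, 7.28 and 6.92 in Pax5-deficient samples, against 7.92, 8.24 and 7.87 in wild-type samples. PRKCB fell by 1.14 ± 0.21 (SE, n = 3 per group) there, its brightest probe set, and 3 dimmer ones gave falls of 1.16 ± 0.13, 1.12 ± 0.30 and 1.19 ± 0.27 (limma adjusted p = 0.00775, 0.000521, 0.0481 and 0.0247), and its last was at background. TAB2, which binds ubiquitin chains and brings in the kinase TAK1, fell by 0.90 ± 0.16, 0.95 ± 0.17 and 0.67 ± 0.12 on its 3 probe sets above background (adjusted p = 0.00844, 0.00758 and 0.00821). TRAF3IP3, a TRAF3-interacting protein, had a small fall of 0.51 ± 0.14, and that call was lost when 1 or another of 5 samples was left out (adjusted p up to 0.144).

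The 3 genes that rose were PRKCQ, TNFRSF13B and TNFRSF1B. PRKCQ, the protein kinase C known from T cell receptor signalling to NF-kB, read 5.27, 5.02 and 5.84 in Pax5-deficient samples, against 4.42, 4.29 and 3.98 in wild-type samples, a rise of 1.15 ± 0.20 (SE, n = 3 per group; limma adjusted p = 0.00686). On its other probe set, at background in wild-type samples and in 2 of the 3 Pax5-deficient ones, the bound was at least 1.03-fold higher (limma adjusted p = 0.0226). TNFRSF13B encodes TACI, a receptor for BAFF and APRIL. It read 5.28, 5.90 and 5.96 in Pax5-deficient samples, against 4.45, 4.57 and 4.92 in wild-type samples, a rise of 1.06 ± 0.19 (adjusted p = 0.00772), while its other probe set differed by 0.23 ± 0.12. TNFRSF1B, a receptor for TNF, rose by 0.91 ± 0.23 on its brightest probe set (adjusted p = 0.0337), a call lost in 5 of the 6 fits that left out 1 sample (up to 0.13), and by 1.16 ± 0.19 on a dimmer one (adjusted p = 0.00458). A further TNFRSF1B probe set above background in all samples differed by 0.37 ± 0.14 with overlapping groups and did not pass (limma adjusted p = 0.145), and its last was at background.

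The measured catalytic subunits of the IkB kinase complex and several inhibitors did not pass. IKBKB and CHUK, those subunits, differed by -0.12 ± 0.10 and 0.30 ± 0.15 (SE, n = 3 per group), and CYLD, a deubiquitinase that restrains the pathway, by 0.08 ± 0.09. CD40 differed by 0.11 ± 0.10 and the further inhibitor NFKBIE by 0.10 ± 0.12. TNFAIP3, a ubiquitin-editing feedback inhibitor, lay near background in both groups. TNIP2, NKIRAS1 and NKIRAS2 on the same list were higher without overlap, by 0.61 ± 0.17, 0.36 ± 0.11 and 0.27 ± 0.10 (SE). They did not pass either (limma adjusted p = 0.0543, 0.0844 and 0.17). Over the whole list the groups did not overlap for 20 of 42 genes, 11 lower and 9 higher, against 35.0% of all genes. The genes named in this paragraph were singled out after their values were seen.

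Genes known in other species as NF-kB targets were called in both directions. Of 37 listed, 31 were measured, of which 3 fell and 3 rose on their brightest probe sets, while 25 did not pass. Among these 25, a dimmer probe set of CCND1 did pass, with a fall of 0.48 ± 0.12 (SE; limma adjusted p = 0.0309). So did one of PLAU, at -0.42 ± 0.09 (SE; limma adjusted p = 0.0154), but it was at background in all 6 samples. In each direction 9.68% were called, against the 9.74% lower and 6.01% higher of all genes. Their median difference was 0.04, and 9 were at background in all 6 samples. This list shares 4 measured genes with the pathway list. TNFSF13B, which encodes the survival factor BAFF, was at background in the 3 Pax5-deficient samples (3.76, 3.17 and 3.32), against 9.20, 9.26 and 9.02 in wild-type samples, at least 41.3-fold lower (limma adjusted p = 1.62e-07). A second probe set was also at background in the 3 Pax5-deficient samples and at least 18.1-fold lower. On the remaining one, with 2 of the 3 Pax5-deficient samples above background, it fell by 3.96 ± 0.10 (SE, n = 3 per group). PTGS2, an inducible cyclooxygenase, fell by 1.06 ± 0.11 (SE, n = 3 per group) to near background, and CCND2, a D-type cyclin, by 0.84 ± 0.12 (adjusted p = 0.000474 and 0.0028). The other probe set of PTGS2 was at background, and of the other 2 of CCND2, 1 fell by 0.98 ± 0.22 (adjusted p = 0.0201) and 1 differed by -0.64 ± 0.22 and did not pass (limma adjusted p = 0.113).

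CD83, a surface protein of activated B cells and dendritic cells, was above background in Pax5-deficient samples and at background in wild-type samples. It read 5.38, 6.54 and 4.97 in Pax5-deficient samples, against 3.30, 3.38 and 3.51 in wild-type samples, at least 3.74-fold higher (limma adjusted p = 0.0028). NOS2, the inducible nitric oxide synthase, rose by 0.81 ± 0.14 (SE, n = 3 per group; adjusted p = 0.00631). SOD2, the mitochondrial superoxide dismutase, rose by 0.42 ± 0.10 (adjusted p = 0.0319), but that call was lost in 5 of the 6 fits that left out 1 sample (up to 0.104).

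**Figure D4:**
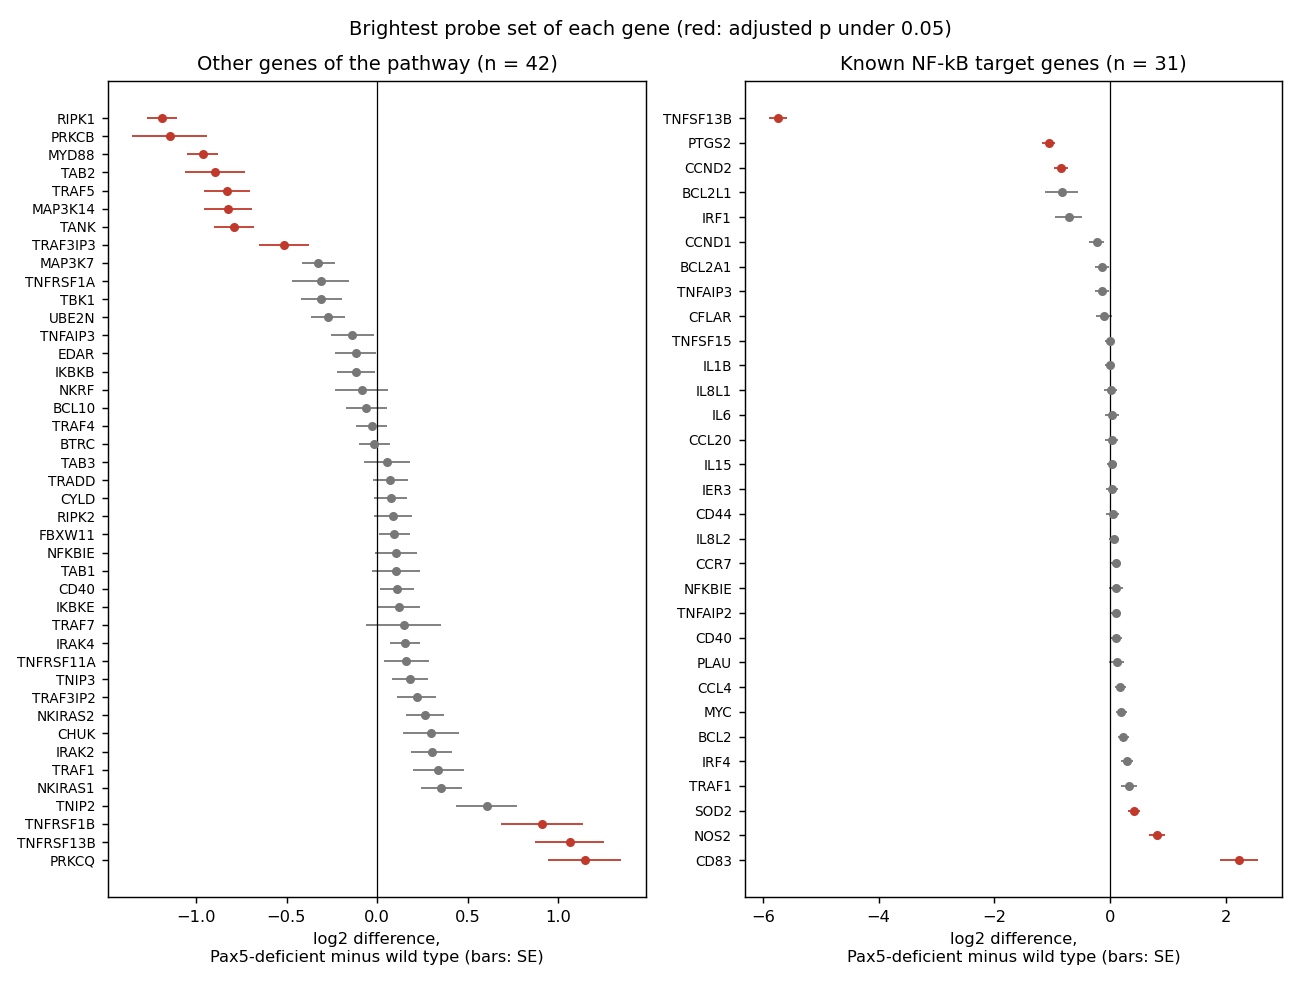
The log2 difference (x axis, Pax5-deficient minus wild type, bars are SE) of the brightest probe set of each measured gene of the pathway (left, 42 genes) and of the known targets (right, 31 genes). The x axes differ in scale. Red genes passed an adjusted p of 0.05, with 8 below and 3 above 0 on the left and 3 on each side on the right.

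The genes whose pattern over the 6 samples was most like that of TRAF3 and NFKBIZ, the members with the smallest adjusted p on their brightest probe sets, were found by Euclidean distance between values centred on each gene's own mean, among 9434 genes above background in at least 1 group. For NFKBIZ the nearest was SOCS1, a feedback inhibitor of cytokine signalling, at a distance of 0.234. SOCS1 read 4.14, 3.80 and 3.95 in Pax5-deficient samples, against 6.28, 5.52 and 5.57 in wild-type samples. Like NFKBIZ, it was highest in wild-type replicate 1. RUNX1 and QPCT followed at 0.614 and 0.622. Both were also highest in wild-type replicate 1, with wild-type values of 6.18, 6.01 and 5.91 for RUNX1 and 6.85, 6.82 and 6.47 for QPCT. For TRAF3 the nearest were RILPL2, MVB12B and KLHDC1, at 0.176, 0.191 and 0.215. All 6 of these genes fell, as the choice by likeness makes likely, so this is a description.

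**Figure D5:**
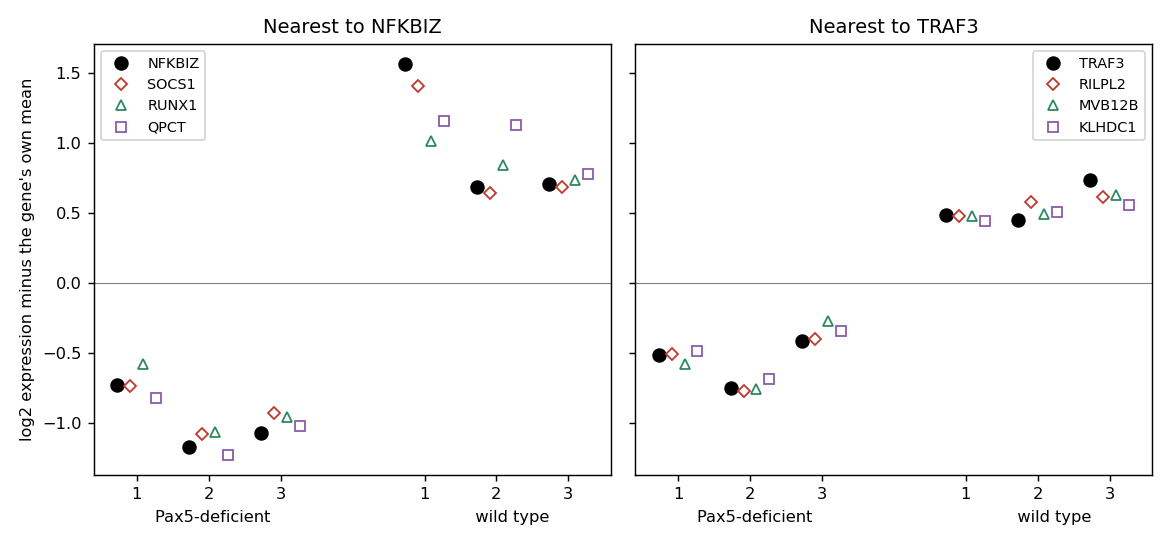
The log2 expression of NFKBIZ (left) and TRAF3 (right), in black, and of the 3 genes nearest to each, as differences from each gene's own mean over the 6 samples (y axis), by sample (x axis, Pax5-deficient replicates, then wild-type replicates). Wild-type replicate 1 is highest for NFKBIZ and for each of the 3 genes nearest to it, which the choice by likeness makes likely.

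Genes beside the members on the chromosome were read in the order of the GRCg7b assembly, 3 measured genes to each side. Over all genes 9.74% were called lower and 6.01% higher, and the counts of neighbours are given as a description. Around TRAF3, 1 of 6 neighbours fell and none rose, with differences from -0.50 to 0.54, all smaller in size than that of TRAF3 on its brightest probe set. Around NFKB1, 2 of 6 fell and none rose, MANBA, its next measured gene, by 1.17 and BANK1 by 0.53. Around NFKBIZ, 3 of 6 fell and none rose. Of these ZPLD1, again the next one, did not exceed background in any Pax5-deficient sample and was at least 2.29-fold lower there, while CBLB fell by 0.93 and CEP97 by 0.51. Around NFKBIA, 2 fell and 1 rose, with differences from -0.68 to 0.57. Around BIRC2, 1 fell and none rose. This was TMEM123, also a next measured gene, by 1.02, a larger fall than that of BIRC2 on its brightest probe set. Around TRAF2, 1 fell and 2 rose. Around NFKB2 and RELA, 1 each rose and none fell, and around TRAF6 none passed. Around REL, whose brightest probe set did not pass, 2 fell and none rose, among them its next measured gene BCL11A, a B lineage transcription factor gene, by 1.92. The neighbours given by name were chosen after their values were seen.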

How the data were processed

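Total RNA of 6 DT40 samples was labelled with biotin and hybridised to 1 array each. The deposited values are log2 expression levels made by the authors with RMA, per the submitters' processing notes. The RMA version, probe set definition, scan dates and batches are not stated by any label. Of 38535 probe sets in the table, 96 array controls were left out, and 0 values were missing. Genes were named by the platform annotation, where 27168 probe sets had 1 symbol, 177 several and 11094 none. Symbols were checked through Entrez IDs against the RefSeq table of GRCg7b, which changed 0. That table gave names and gene order only, since the annotation names no build.

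Groups were taken from the titles. Each probe set was fitted with limma 3.58.1 in R 4.3.3 (group as the only term, eBayes, two-sided, Benjamini-Hochberg over 38439 probe sets, threshold 0.05). For each gene the brightest probe set over the 6 samples stands for it. A gene at or under background in all samples of 1 group has a fold bound, against the higher of background and own value. Within groups, probe sets had a median SD of 0.124 (Pax5-deficient) and 0.105 (wild type). The fit was tested on simulated data with changes put into probe sets above the median level. It recovered 17.9% of changes of 0.5, 68.7% of 1.0 and 98.5% of 2.0. The simulation changed 67, 67 and 66 probe sets at these sizes, while the real fit called 4085. The adjustment depends on how many probe sets change, so these rates may not hold for the real data. A probe set that did not pass may still have changed by an amount within its interval from limma. For the brightest probe sets of REL and TRAF6 these intervals were -0.37 to 0.19 and -0.25 to 1.05. With 3 arrays a group, their number limits precision.

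The members and lists were chosen with earlier results of these data known. List genes were matched by symbol, and those without a match were not analysed here. Quantile normalization, median centring, a filter on dim probe sets, a variance trend, robust eBayes, the replicate block, the mean of a gene's probe sets and leaving out each sample were tried. By rule the list genes named were those that passed, up to 8 per list and direction by adjusted p. List genes named without passing on their brightest probe set were chosen after the values were seen. Background was defined after the data were seen. Python 3.11.15 joined the tables. No sequences are printed.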

Additional observations from a re-analysis of the deposited data

How the results depend on the processing

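Total counts of calls stayed within 1.5 times the reported ones in the settings tried, except over all probe sets and all genes without wild-type replicate 2 (2490 probe sets and 1286 genes). Counts by direction moved further. Without wild-type replicate 1, 2 or 3, the genes called higher numbered 497, 446 and 513 in place of 782, and the probe sets 909, 868 and 952 in place of 1509. Without wild-type replicate 2, 840 genes and 1622 probe sets were called lower, in place of 1267 and 2576. Pathway genes called higher numbered 5 in place of 3 with quantile normalization and without Pax5-deficient replicate 2. The count over all probe sets, 4085 with all samples, ranged from 2490 to 4172 when 1 sample was left out. With 1 sample left out, 6 to 7 member probe sets, 4 to 5 member genes, 9 to 13 pathway genes and 5 to 7 target genes passed. With the replicate number as a block, 4116 probe sets passed in all, with 7 member probe sets, 4 member genes, 12 pathway genes and 6 target genes. In that fit BIRC2 lost its call on the brightest probe set (adjusted p = 0.0568) and the dimmer REL probe set passed (0.046). No label says what same-numbered samples share beyond the number. Their deviations from the group means correlated at 0.12, 0.07 and -0.01, against -0.12 to 0.06 for samples of different number. With 3 samples per group the deviations depend on each other, so this cannot decide whether same-numbered samples belong together. With the mean of a gene's probe sets, 4 member genes passed.

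The sign turned only for member probe sets with differences near 0, none of which passed. Leaving out 1 sample, the brightest REL probe set ranged from -0.166 to 0.0257, the REL probe set at background from -0.0216 to 0.0610, the TRAF2 probe set at background from -0.0305 to 0.0499, the TRAF6 probe set at background from -0.0981 to 0.0237, and the middle BIRC2 probe set from -0.112 to 0.0563. Quantile normalization gave -0.0206 for REL at background, -0.0152 for TRAF2 at background and 0.0740 for the middle BIRC2 probe set. Median centring gave -0.0138 for REL and -0.00817 for TRAF2, both at background. The cause was not tested. The differences between changes kept their sign in every setting. Signal near background limits what can be said of RELA, NFKB2 and the lower end of TRAF3.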
